A study of Rattus norvegicus with 11 samples.

Results

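The retroperitoneal white fat of 6 rats that received degarelix alone is described here gene by gene, with no comparison with other animals. The animals were female Wistar rats that entered the study at 10 weeks of age. After 6 weeks on a western diet, their ovaries were removed and they received degarelix, which blocks the receptor of gonadotropin-releasing hormone and so lowers pituitary gonadotropin output. Their implanted pumps held vehicle only. Food was limited for 12 days and then free for 7 days, and the fat pad was snap-frozen when the rats were 19 weeks old and had fasted for 4 h. All 6 rats therefore share the lost ovaries, the drug, the diet, the pump and the feeding schedule, and none of these can be told apart as a source of a level given below. Each library holds the RNA of 1 rat, and these 6 are among the 11 libraries of the series. Rats are numbered 1 to 6 as in the labels, and the numbers carry no order.

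A gene was kept when it reached at least 1 CPM (the count of a gene scaled to the library's TMM-adjusted total) in all 6 libraries, which left 11500 of the 16569 genes with any count. Just inside the limit lay Spred3, at 1.01 CPM in its lowest library, and just outside lay B3gnt6, at 0.997 CPM. The kept genes held 99.8% of the counts of every library. Because a gene had to be present in every rat, genes read in some rats and nearly absent in others are outside the set, and 10 of those reached 10 CPM somewhere. The spread of a gene between rats is given as the coefficient of variation (CV, the SD as a percent of the mean CPM) after subtracting what counting error alone would give.

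Total counts lay between 16452117 and 23694602 (mean 19947536 ± 2898450, SD, n = 6), so 3 counts, the limit that a count of 0 allows, correspond to 0.124 to 0.181 CPM. The first principal component of log2 CPM took 40.3% of the variance and set rat 4 at one end and rat 1 at the other, and the second took 19.5% and set rat 6 apart. All 8 adipocyte markers were kept, and their summed CPM lay between 35469 and 44973. Summed markers of endothelial cells (1405 to 1890 CPM), fibroblasts and progenitors (1682 to 2694 CPM) and smooth muscle (719 to 1058 CPM) differed by less than 2-fold. Macrophage markers differed by 2.10-fold (353 to 741 CPM) and red blood cell markers by 5.85-fold (205 to 1199 CPM). Among the latter Alas2, the first enzyme of haem synthesis in red cells, was at 14.1 CPM in rat 1 and 2.08 to 9.28 CPM in the others. Markers of kidney, of other epithelia and of B cells were under 5 CPM in sum in every rat. Other marker sums were higher, among them those of adrenal gland (51.9 to 68.3 CPM) and neutrophils (384 to 785 CPM). Markers of liver and pancreas, which include Alb, described below, summed to 270.5 to 1286 CPM. The adipocyte markers of the labelled tissue were thus present in all 6 libraries, beside some markers of other cells and tissues. In whole tissue, a lower count can come from fewer cells of a type or from less RNA per cell, and these cannot be told apart.

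White adipocytes store energy as triglyceride. They make fatty acids from glucose through citrate, which ATP citrate lyase (Acly), acetyl-CoA carboxylase (Acaca) and fatty acid synthase (Fasn) turn into palmitate, and stearoyl-CoA desaturases (Scd1, Scd2) then add a double bond. Feeding and insulin raise these genes through SREBP1c and ChREBP, whereas fasting and adrenergic signals favour lipolysis and genes such as Pck1 and Angptl4. Interferon-stimulated genes, heat shock genes and immediate early genes are groups whose members share transcription factors: the ISGF3 complex and the IRF proteins, heat shock factor 1, and serum response factor.

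Promoters were read because members of these groups varied together between rats. Of the 35 kept interferon members, 25 had a RefSeq promoter (250 bases before the gene start, build GRCr8), and 16 of these (64.0%) held the interferon-stimulated response element letters (TTTC, any 2 bases, TTTC) on either strand, against 3.41% of all 33469 promoters of the same length. Rsad2, Oasl2, Ifit3 and Irf7 are printed because their levels follow below. They are 120-base windows on the gene's own strand, 5′ to 3′, with the matched letters in capitals.
Irf7 (chr1:205800028-205800147, minus strand): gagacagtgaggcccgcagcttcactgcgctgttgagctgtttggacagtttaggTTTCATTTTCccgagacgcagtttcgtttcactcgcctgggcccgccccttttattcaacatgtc
Ifit3 (chr1:241527206-241527325, plus strand): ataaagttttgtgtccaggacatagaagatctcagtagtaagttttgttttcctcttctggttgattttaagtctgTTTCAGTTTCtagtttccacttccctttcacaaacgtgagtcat
Rsad2 (chr6:48788203-48788322, minus strand): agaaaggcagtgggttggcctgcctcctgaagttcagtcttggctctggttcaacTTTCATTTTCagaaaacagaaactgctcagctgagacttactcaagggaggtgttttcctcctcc
Oasl2 (chr12:47383272-47383391, minus strand): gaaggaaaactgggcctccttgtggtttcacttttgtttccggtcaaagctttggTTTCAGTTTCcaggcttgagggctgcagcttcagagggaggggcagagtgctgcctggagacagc

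The heat shock element letters (TTC, any 2 bases, GAA, any 2 bases, TTC, on either strand) stood in 2 of 14 heat shock promoters (14.3%; 0.663% of all promoters). Both are shown with the matched letters in capitals. Hsph1 was one of the most variable genes of the set and Hspd1, beside it, had a CV of 10.9%. The same letters stood in 2 of 25 interferon promoters.
Hsph1 (chr12:10427248-10427367, plus strand): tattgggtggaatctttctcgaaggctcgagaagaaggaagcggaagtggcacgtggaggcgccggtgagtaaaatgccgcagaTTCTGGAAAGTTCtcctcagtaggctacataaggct
Hspd1 (chr9:64084168-64084287, minus strand): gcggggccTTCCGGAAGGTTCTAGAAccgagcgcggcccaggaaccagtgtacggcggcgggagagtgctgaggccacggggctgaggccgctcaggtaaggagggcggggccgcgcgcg

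The CCAAT box, read as CCAAT or ATTGG, stood in 14 of 16 promoters of the cholesterol synthesis list (87.5%) and in 11 of 15 of the fatty acid synthesis list (73.3%), against 34.0% of all promoters. It was also above that share in heat shock (8 of 14, 57.1%) and immediate early promoters (7 of 15, 46.7%), and below it in interferon promoters (7 of 25, 28.0%). All promoters include those of genes not kept here. The sterol element letters TCACNCCAC stood in none of the promoters of these lists and in 0.974% of all, which says only that these letters are not in the window. The CArG box, bound by serum response factor, stood in 4 of 15 immediate early promoters (26.7%; 1.497% of all). Matches of the interferon and heat shock letters did not overlap in any promoter, and those of the CCAAT and CArG boxes did in 90. The letters of a CArG box can themselves hold CCAAT or ATTGG. Among immediate early promoters Egr1, Egr2 and Klf6 held both boxes, so the counts of these boxes there are not separate. Fdps, of the sterol pathway, is shown for its CCAAT boxes, in capitals.
Fdps (chr2:176804840-176804959, minus strand): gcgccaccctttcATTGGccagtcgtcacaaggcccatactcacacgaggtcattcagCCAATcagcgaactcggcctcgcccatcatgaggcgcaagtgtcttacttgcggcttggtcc

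Among the 20 most abundant genes by counts, Car3, a carbonic anhydrase typical of fat and muscle, had the highest mean (38218 ± 7450 CPM, SD, n = 6) and lay between 31137 CPM in rat 3 and 51056 CPM in rat 6. Scd1 came next with 35949 ± 24750 CPM. Longer transcripts collect more counts and transcript lengths were not used here, so this order is of counts and not of molecules. Behind these stood Lpl, the lipase that frees fatty acids from lipoproteins (15747 ± 2302 CPM), Fabp4, the fatty acid carrier of adipocytes (15064 ± 1065 CPM), and Sparc, a matrix-binding glycoprotein (13930 ± 2384 CPM). Thrsp, a small nuclear protein tied to lipogenesis (11657 CPM), Fasn (11612 CPM) and the hormone adiponectin, Adipoq (10915 CPM), closed the group of highest counts.

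The next 12 were Gpd1 and Dgat2 of triglyceride synthesis, the acyl-CoA synthetase Acsl1, Sncg, S100b, the actin-severing Gsn, the lipid droplet coat Plin1, the amine oxidase Aoc3, ferritin heavy chain Fth1, Eef1a1, Atp5b and B2m, at means between 3355 and 7030 CPM. Together the 20 genes took 20.6 ± 2.67% (SD, n = 6) of the counts. The share was 24.3% in rat 1 and 16.6% in rat 4, and Scd1 alone went from 66094 CPM in rat 1 to 4183 CPM in rat 4. The spread within this group was wide. Scd1 (CV 68.9%), Fasn (66.5%) and Thrsp (46.3%) were the most variable, and Fth1 (5.26%), Eef1a1 (6.82%), Fabp4 (7.07%) and Adipoq (7.82%) the least. Adipoq lay between 9529 and 11573 CPM and Fabp4 between 14144 and 16987 CPM, while Scd1 had a 15.8-fold range over the same rats.

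The median CV between rats was 9.79% (25th to 75th percentile 5.85% to 16.2%), beside a median counting CV of 4.47%. A CV of at least 50% was found in 194 genes (1.69% of the kept genes), and 8 of them reached 100%. At 1 CPM counting error alone gives a CV of 22.6%, and at 50 CPM 3.20%. Of the 194 genes, 65 were highest in rat 4, 45 in rat 1 and 34 in rat 6, and 65 were lowest in rat 1 and 44 in rat 4. How many of all kept genes were highest or lowest in each rat was not counted. Counts of list members highest or lowest in a rat, given below, therefore have no such share beside them and are descriptions only. For 649 genes (5.64%), 1 library stood apart from the other 5 by the Dixon ratio, and it was rat 4 in 180 of them and rat 6 in 159. Chance flags about 1 in 20 genes by this ratio, so 5.64% is near the share that chance gives.

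**Figure D1:**
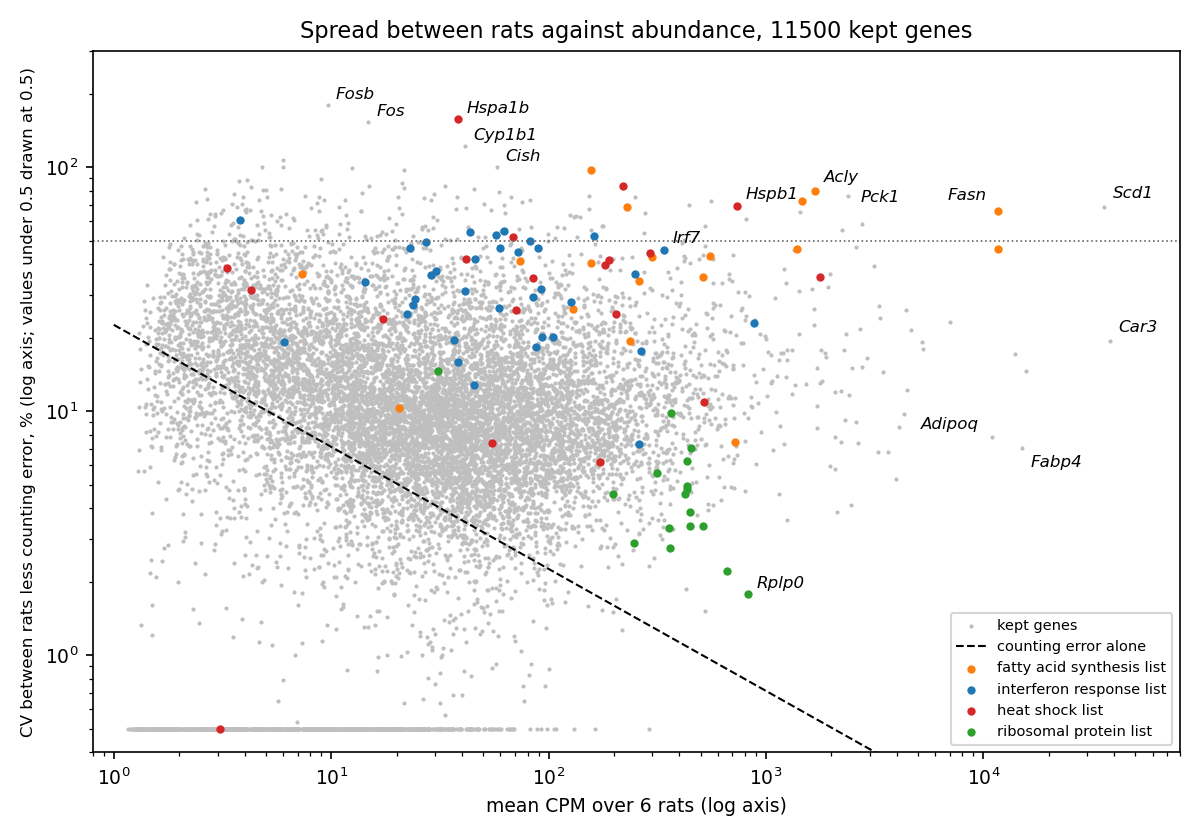
CV between rats less counting error (%, log axis) against mean CPM over the 6 rats (log axis) for all kept genes. Grey points are genes, coloured points are members of 4 lists, the dashed line is counting error alone and the dotted line marks 50%. Scd1 and Fasn lie above the dotted line at high abundance, and ribosomal protein genes lie near the bottom of the cloud.

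The 15 least variable genes with a mean of at least 50 CPM differed by at most 1.06-fold between rats. Eif4h, a translation initiation factor, was read at 283 to 293 CPM in the 6 rats (highest over lowest 1.04-fold). Dhrsx lay between 66.6 and 69.6 CPM, and Emc1, a subunit of the complex that inserts membrane proteins into the endoplasmic reticulum, between 96.0 and 101 CPM. Their total spread was no larger than counting error gives. The same held for Suclg2, Egln2, Glod4, Hipk1, Wdr48, Sirt2, Dnajb6 and Ccar2. Ywhae (CV 1.53%), Rplp0 (1.78%) and Ap2m1 (1.27%) varied by slightly more than counting error, as did Gnb2l1 (1.87%), whose symbol stands on 2 rows, so its value is uncertain. Over the whole set, 837 genes (7.28%) had no spread beyond counting error.

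The 20 most variable genes with a mean of at least 5 CPM came from several groups. Fosb, an AP-1 subunit induced within minutes by many signals, was read at 44.95 CPM in rat 3 and at 1.62 to 3.38 CPM in the other 5. Without rat 3 its CV went from 180% to 22.5%. Fos, another AP-1 subunit, was read at 60.8 CPM in rat 3 against 2.57 to 6.74 CPM elsewhere, and its CV without rat 3 was 29.5% in place of 153%. Egr1, another immediate early factor, stood at 118 CPM in rat 3 and 18.1 to 43.0 CPM in the others.

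A second group was highest in rat 4. Hspa1b, the inducible heat shock chaperone, was read at 157 CPM in rat 4, 48.0 CPM in rat 3 and 4.34 to 7.91 CPM in the remaining 4, and its CV stayed at 128% without rat 4. Hspa1a, its near-identical copy, received 5 counts in all, so the division of reads between them is uncertain. Irf4, a transcription factor of adipocytes and immune cells, reached 19.1 CPM in rat 4 and 2.32 to 5.40 CPM elsewhere. Siglec1, a macrophage lectin induced by interferon, stood at 57.0 CPM in rat 4 and at 7.66 to 18.7 CPM in the others. Cpa3, a mast cell protease, was at 24.4 CPM in rat 4 and at 1.54 CPM in rat 3.

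Rat 6 was highest for Cyp1b1, a cytochrome P450 that hydroxylates estrogens, with 141 CPM against 43.5 CPM in rat 5 and 12.7 to 17.3 CPM in the other 4. Fabp3, the heart-type fatty acid carrier, was also highest there (86.8 CPM; 11.1 to 36.3 CPM elsewhere), as was the secreted Wnt antagonist Sfrp4 (36.1 CPM; 3.26 to 17.0 CPM). The cytokine signalling inhibitor Cish followed no rat alone. It was read at 8.08, 7.08, 56.2, 26.4, 94.3 and 156 CPM in rats 1 to 6, a 22.0-fold range. Rpl30 stood at 18.3 CPM in rat 2 and 3.15 to 4.64 CPM in the others, and as a ribosomal gene with copies elsewhere in the genome its count is uncertain. Further members, Scd2, Pappa2, Ttc25, Acly, Alas2, Hsph1 and Rasgef1b, are described with their groups.

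Fatty acid synthesis had the highest median CV of the 26 pathway lists with at least 5 kept members. Of its 21 members 18 were kept, and their median CV was 42.1%, beside 9.79% over all kept genes. A CV of at least 50% was found in 5 of the 18 (27.8%, beside 1.69% of all). The list score, the mean over members of log2 CPM less each member's own mean, was 0.84 in rat 1, 0.55 in rat 5, 0.20 in rat 3, 0.11 in rat 2, -0.61 in rat 6 and -1.09 in rat 4. Rats 1 and 5 were thus high, rats 2 and 3 in the middle, and rats 4 and 6 low. Rat 4 was lowest for 15 of the 18 members.

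Fasn was read at 22754, 11012, 11391, 2086, 17623 and 4804 CPM in rats 1 to 6, a 10.9-fold range. Acaca, which commits acetyl-CoA to the pathway, went from 450 CPM in rat 1 to 45.6 CPM in rat 4. Acly, which supplies that acetyl-CoA, went from 3857 CPM in rat 1 to 331 CPM in rat 4, and rat 6 lay beside rat 4 at 355 CPM. Both rats stood well below the other 4 for Acly. Malic enzyme Me1, a source of NADPH, ranged from 283 to 2875 CPM, and the pentose phosphate enzyme Tkt (557 to 2316 CPM) ranged less. The desaturase Scd2 showed the widest range, 434 CPM in rat 1 against 17.3 CPM in rat 4 (25.1-fold, CV 97.7%). Scd1, outside the list because its symbol could not be matched uniquely, had a 15.8-fold range with the same order of rats as Fasn apart from rats 2 and 3.

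The share of all counts in the 18 members was 5.26% in rat 1 and 0.979% in rat 4, and with Scd1 it was 11.4% and 1.42%. Members outside this pattern were Srebf1, which encodes SREBP1, at 667 to 786 CPM (CV 7.47%), and Acacb, the mitochondrial acetyl-CoA carboxylase, at 16.5 to 23.1 CPM (CV 10.3%). Mlxipl, which encodes ChREBP, ranged from 65.2 CPM in rat 6 to 244 CPM in rat 1. The median Pearson r of log2 CPM over the pairs of members was 0.89, and it was 0.86 without rat 4. The summed adipocyte markers were 39914, 38657, 35610, 40047, 35469 and 44973 CPM in rats 1 to 6. They were alike in rats 1 and 4, the ends of the lipogenic range, but lowest in rat 5 and highest in rat 6. The part of adipocyte content in the spread was not tested. Summed macrophage markers were lowest in rat 1 (353 CPM) and highest in rat 4 (741 CPM), and their part in the spread was not tested.

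**Figure D2:**
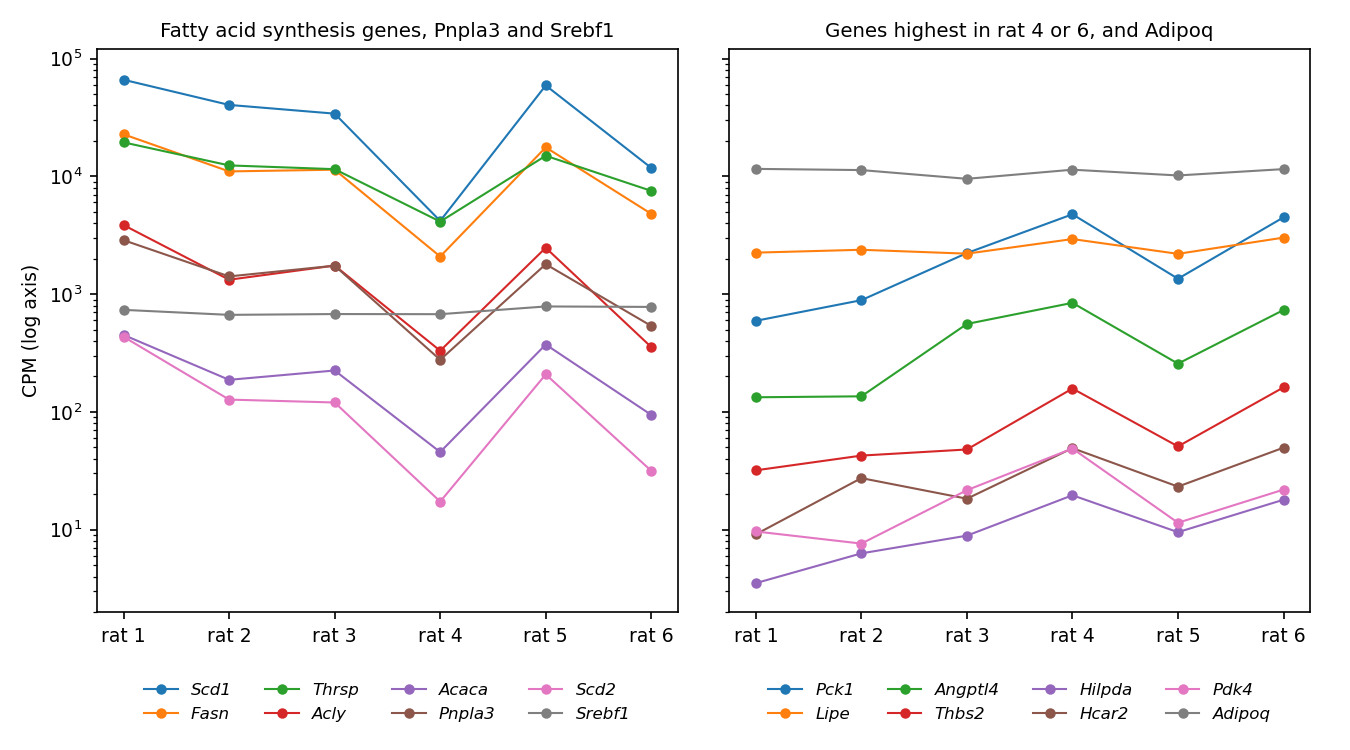
CPM (log axis) of lipid genes in each of the 6 rats. Points are single libraries, and lines join the values of a gene without implying an order of rats. On the left, Scd1, Fasn and Acly are lowest or next to lowest in rats 4 and 6 while Srebf1 stays between 667 and 786 CPM. On the right, Pck1 and Angptl4 are highest in rats 4 and 6 while Adipoq stays between 9529 and 11573 CPM.

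Pck1, Angptl4, Hilpda and Hcar2, named for their high CV, were highest in rats 4 and 6, the rats low for fatty acid synthesis. Pck1, which makes glycerol phosphate from pyruvate in fat, was read at 594, 888, 2232, 4764, 1351 and 4486 CPM in rats 1 to 6. Angptl4, an inhibitor of Lpl that is induced by fatty acids, was read at 133, 136, 558, 843, 257 and 733 CPM. Both were lowest in rats 1 and 2. Not all genes of glycerol supply and esterification did so: Gpd1 and Gpam were highest in rat 1, as were 8 of the 15 kept triglyceride synthesis members. In the lipolysis and lipid droplet list (19 of 21 kept, median CV 19.3%), 3 members had a CV of at least 50% (15.8%, beside 1.69% of all kept genes). Of these Hilpda, an inhibitor of the lipase ATGL, ranged from 3.52 CPM in rat 1 to 19.6 CPM in rat 4, and the receptor Hcar2 from 9.13 CPM in rat 1 to 49.7 CPM in rat 6. The beta-adrenergic receptor gene Adrb1 was highest in rat 6 as well (14.6 CPM) and lowest in rat 1 (3.88 CPM).

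Hormone-sensitive lipase, Lipe, lay between 2198 and 3019 CPM (CV 15.1%) and the droplet coat Plin1 between 3937 and 4944 CPM (CV 9.76%). Pnpla2, which encodes ATGL, was read at only 2.20 to 3.26 CPM, which is low for a gene known to be active in fat, so its count is uncertain. Elovl6 received 1 count in all 6 libraries, and Hsp90aa1 and Col1a2 were also low (at most 5.40 CPM, and 42 counts in all), with the same caution. In triglyceride synthesis (15 of 16 kept, median CV 21.5%), Dgat2 lay between 2880 and 5676 CPM, Gpd1 between 5518 and 9471 CPM, and Gpam between 22.5 CPM in rat 4 and 115 CPM in rat 1. The fatty acid oxidation list (median CV 13.4%) had 1 member of 18 above 50% (5.56%, beside 1.69% of all kept genes), Pdk4, the kinase that shuts pyruvate dehydrogenase, which stood at 48.9 CPM in rat 4 and 7.62 to 21.9 CPM in the others. Among adipokines (median CV 21.5%), Lep lay between 2392 CPM in rat 5 and 4874 CPM in rat 6, and Retn between 413 and 982 CPM.

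Sterol, glucose and mitochondrial genes ran in the direction of fatty acid synthesis but with smaller ranges. In the cholesterol list (23 of 24 kept, median CV 15.5%), 18 members were highest in rat 1 and 16 lowest in rat 4. Insig1, which holds the SREBP complex in the endoplasmic reticulum, was read at 2469, 1559, 1784, 1175, 1492 and 1529 CPM. Fdps went from 328 CPM in rat 1 to 116 CPM in rat 4, and Mvd from 38.8 CPM in rat 1 to 11.7 CPM in rat 4. The median r within the list was 0.63, and 0.45 without rat 1.

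In glycolysis (17 of 18 kept, median CV 16.1%), Aldoa ranged from 1575 CPM in rat 4 to 4943 CPM in rat 1, the glucose transporter Slc2a4 (GLUT4) from 202 to 652 CPM, and Gapdh from 624 to 1827 CPM. Gapdh is often used as a reference gene, and its CV here was 38.5%. In the citric acid cycle list (15 of 16 kept, median CV 17.3%), the pyruvate dehydrogenase subunit Pdhb ranged from 173 CPM in rat 4 to 678 CPM in rat 1 and pyruvate carboxylase, Pc, from 1211 to 2967 CPM. All 22 kept respiratory chain and ATP synthase members were lowest in rat 4 and 19 were highest in rat 1, though their median CV was only 13.8%. Atp5b lay between 2657 and 4173 CPM and Ndufs1 between 150 and 254 CPM. The median r within this list was 0.92. A CV of 50% was reached by none of the members of these 3 lists, beside 1.69% of all kept genes. At so low a share, lists of this size are likely to hold none, so the absence is no trait of these lists.

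Scores of 10 lists were compared over the 6 rats in all 45 pairs. These were fatty acid, cholesterol and triglyceride synthesis, the respiratory chain, glycolysis, interferon, heat shock, immediate early, extracellular matrix and ribosomal protein genes. The lists and their members were chosen with earlier results of these data known. The p-values therefore describe these scores and are no independent test. In an exact two-sided permutation test over all 720 orders, 9 pairs had an unadjusted p of at most 0.05, and 2 passed Benjamini-Hochberg adjustment. The respiratory chain went with glycolysis (Pearson r 0.997, exact p = 0.00139, adjusted 0.0312; Spearman rho 1.00, exact p = 0.00278, adjusted 0.0417). It also went with fatty acid synthesis (r 0.954, exact p = 0.00139, adjusted 0.0312; rho 1.00, exact p = 0.00278, adjusted 0.0417). The value 0.00139 is the smallest that 720 orders can give. Without rats 1 and 4, the farthest from the median of the respiratory chain score, r with glycolysis was 0.990. Without rats 4 and 6, the farthest from the median of the fatty acid synthesis score, r of the other pair was 0.997. Leaving out each rat in turn gave r between 0.995 and 0.999 and between 0.901 and 0.992, and no pair passed the adjustment with 5 rats, where the smallest exact p is 0.00833. With upper-quartile scaling no pair passed, and with libraries thinned to equal depth 4 did.

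The remaining pairs failed the Pearson adjustment. Fatty acid and cholesterol synthesis had r 0.912 (exact p = 0.00556, adjusted 0.075; rho 0.8286, exact p = 0.0583, adjusted 0.219). Fatty acid synthesis and glycolysis had r 0.937 (exact p = 0.00694, adjusted 0.075), while their rank order was the same in all 6 rats (rho 1.00, exact p = 0.00278, adjusted 0.0417). Triglyceride synthesis and the interferon response ran in opposite directions (r -0.947, exact p = 0.00833, adjusted 0.075; rho -0.8286, exact p = 0.0583, adjusted 0.219), and r was -0.80 without rats 1 and 4. The scores come from the same 6 libraries and the same scaling.

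**Figure D3:**
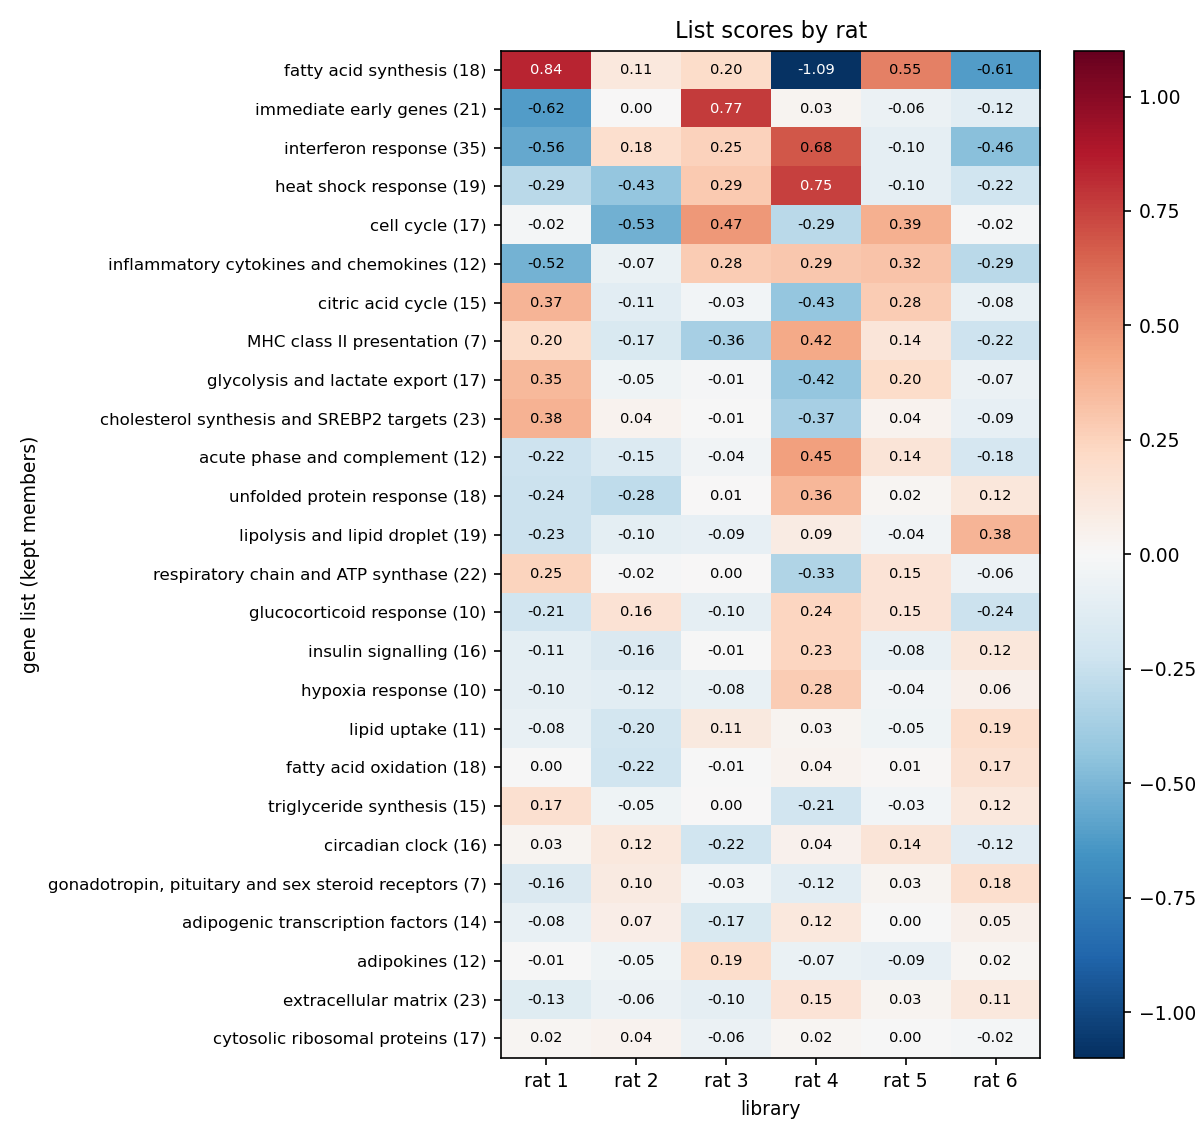
Scores of the 26 pathway lists with at least 5 kept members (rows, number of kept members in brackets) in each rat (columns), as mean centred log2 CPM. Lists are ordered by their range. Fatty acid synthesis runs from -1.09 in rat 4 to 0.84 in rat 1, and ribosomal proteins stay between -0.06 and 0.04.

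Interferon-stimulated genes varied together and were highest in rat 4. Of 38 members 35 were kept, with a median CV of 31.8%, and 5 reached 50% (14.3%, beside 1.69% of all kept genes). Rat 4 was highest for 32 of the 35 and rat 1 lowest for 21, with no share over all kept genes to set beside these counts. The scores in rats 1 to 6 were -0.56, 0.18, 0.25, 0.68, -0.10 and -0.46. Irf7, the factor that amplifies interferon production, was read at 222, 398, 372, 611, 206 and 229 CPM. Herc6 and Usp18, a ligase and a protease for the ubiquitin-like modifier ISG15, ranged from 24.8 CPM in rat 1 to 119 CPM in rat 4 and from 27.4 CPM in rat 6 to 104 CPM in rat 4. Rsad2, the antiviral protein viperin, ranged from 20.4 CPM in rat 6 to 81.7 CPM in rat 4.

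Mx2, an antiviral GTPase, was read at 303 CPM in rat 4 and 69.5 CPM in rat 6. Oasl2 ranged from 34.1 to 144 CPM and Ifit3 from 24.7 to 105 CPM. Zbp1 had the highest CV of the list at a low level (1.26 to 7.46 CPM). The abundant member Ifi27 varied less, at 668 to 1135 CPM. The median r between members was 0.88, and 0.80 without rat 4, so the list varied together in the other 5 rats as well. The 16 members with the response element letters had a median CV of 29.1% and the 9 without them 26.5%. Macrophage, mast cell and lymphatic markers were also highest in rat 4, at 741, 109 and 61.4 summed CPM, against 353 to 654, 42.0 to 58.6 and 33.2 to 40.4 CPM in the others. Of the lymphatic list, all 3 kept members were highest in rat 4, among them Lyve1 (24.4 CPM). Ccl21 and Prox1, not kept, went the other way. Ccl21 was at 0.0899 CPM in rat 4 and 2.52 CPM in rat 1, and Prox1 had 3 and 7 counts there. The part of these cell types in the interferon levels was not tested.

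Heat shock genes were highest in the same rat, but rat 2, above the mean for the interferon list, had their lowest score (-0.43). Of 22 members 19 were kept, with a median CV of 35.6%, and 4 reached 50% (21.1%, beside 1.69% of all kept genes). Rat 4 was highest for 15. Hsph1, a chaperone co-factor, was read at 106, 62.5, 247, 573, 160 and 171 CPM, and the small heat shock protein Hspb1 at 381, 336, 714, 1733, 592 and 650 CPM. Both were lowest in rat 2 and had rat 3 as the next highest after rat 4. Hsp90ab1, the most abundant member, ranged from 1045 CPM in rat 2 to 2887 CPM in rat 4, and Bag3 from 42.3 to 136 CPM. Hspd1, the mitochondrial chaperone, lay between 435 and 573 CPM. Hsf1, which encodes the factor itself, lay between 50.4 and 61.9 CPM. Without rat 4 the median r between members dropped from 0.68 to 0.42.

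The unfolded protein response list, genes of chaperones in the endoplasmic reticulum, was highest in rat 4 for 16 of 18 members with smaller ranges (median CV 17.0%). Hspa5 (BiP) was read at 569, 452, 787, 1117, 732 and 826 CPM, and Sdf2l1 ranged from 9.73 CPM in rat 2 to 30.1 CPM in rat 4. In the glucocorticoid list (10 of 13 kept), rat 4 was highest for 5 members, among them the metallothionein Mt2A (19.2 CPM; 3.77 to 6.87 CPM elsewhere) and Fkbp5 (121 CPM; 44.8 to 72.4 CPM), and the median r was 0.14. Without the share of all kept genes that were highest in rat 4, neither this count nor the 16 of 18 above is read as a trait of its list. Dusp1, another member, was lowest in rat 1 (58.0 CPM) and highest in rat 5 (156 CPM). 

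Immediate early genes, which respond within minutes to growth factors, stretch or handling, were highest in rat 3 for 12 of 21 kept members and lowest in rat 1 for 16. Their median CV was 30.3%, and 6 reached 50% (28.6%, beside 1.69% of all kept genes), led by Fosb, Fos and Egr1. Cyr61, a matrix signalling protein, was read at 20.4, 49.1, 152, 52.7, 45.1 and 36.1 CPM. Jun, in contrast to Fos, was highest in rat 4 (185 CPM; 102 to 143 CPM elsewhere). For 7 of the 21 members, 1 library stood apart by the Dixon ratio (beside 5.64% of all kept genes). The median r between members was 0.52, and it was 0.31 without rat 1. Rat 3 was also the only library with more than 7 counts of the mesothelial gene Msln (66 counts) and any of Upk3b (12 counts). Of the 9 genes in that marker list, Upk1b, Krt18, Lrrn4 and Muc16 also had most counts in rat 3. Wt1 (68 counts in rat 2, 23 in rat 3) and Krt19 (17 in rat 6, 13 in rat 3) did not. Krt8, the only kept member, was highest in rat 2. Whether any of this bears on the immediate early genes was not tested.

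**Figure D4:**
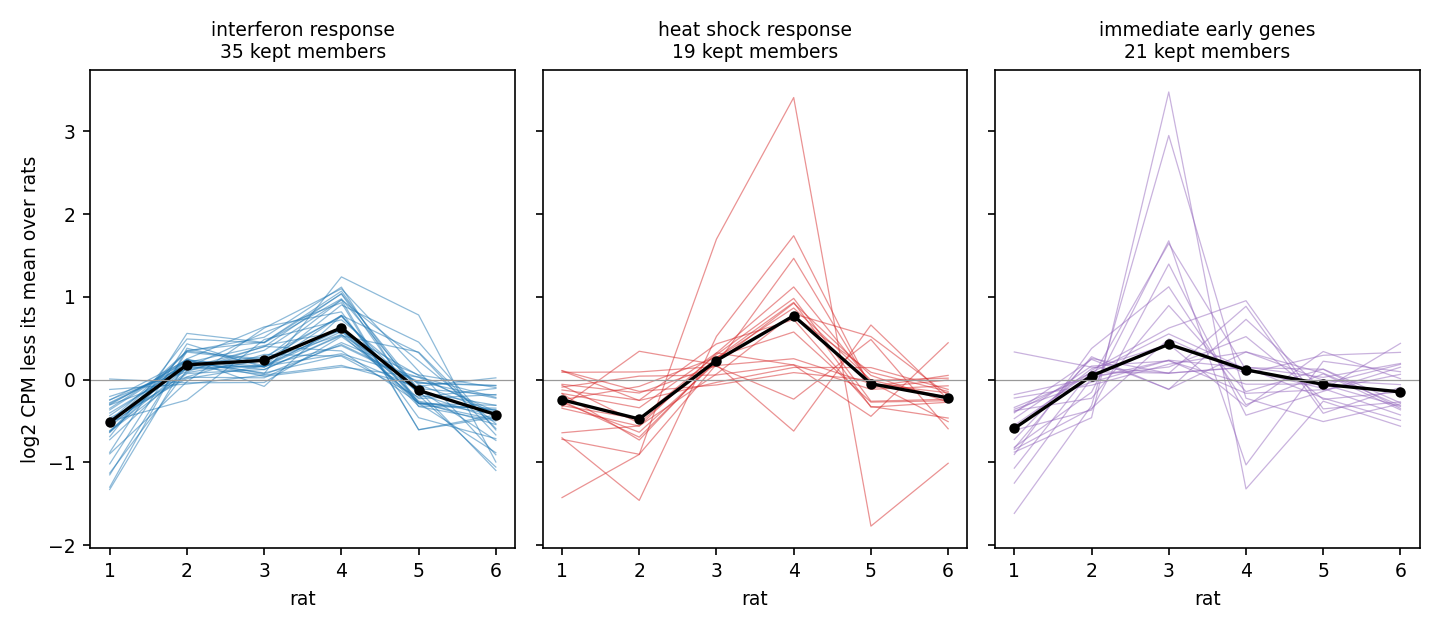
Log2 CPM less the gene's mean over the 6 rats, for kept members of 3 lists. Thin lines are genes and the black line with points is their median in each rat, with no order implied between rats. Interferon and heat shock members peak in rat 4, and the immediate early genes of widest range peak in rat 3.

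Among immune cell markers, those of mast cells (5 of 8 kept) had a median CV of 73.2% and those of macrophages (9 of 10 kept) one of 40.9%. Gpnmb, a marker of lipid-laden macrophages, was read at 45.6, 47.5, 81.2, 149, 127 and 202 CPM, and Trem2 at 2.31, 2.86, 4.74, 8.99, 5.36 and 12.7 CPM. Both were highest in rat 6, whereas Mrc1 (54.9 CPM; 19.6 to 26.5 CPM elsewhere) and Cd163 (25.6 CPM; 9.70 to 15.5 CPM) were highest in rat 4. MHC class II genes varied together with a median r of 0.96, and all 7 kept members were highest in rat 4. Cd74, their invariant chain, lay between 519 CPM in rat 3 and 831 CPM in rat 4. Complement genes C1qa, C1qb and C1qc were highest in rat 4 too, with C1qc at 135 CPM against 52.5 to 74.1 CPM. Among chemokines, Cxcl10 was highest in rats 5 and 4 (26.2 and 22.3 CPM) and lowest in rat 1 (3.99 CPM), and Ccl2 lay between 5.09 and 14.0 CPM.

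Cell cycle genes were low but varied together (17 of 18 kept, median CV 33.2%, median r 0.86). Mki67, the proliferation antigen, was read at 8.66, 5.42, 14.7, 6.70, 12.2 and 9.17 CPM, and Cdk1 at 4.99, 2.44, 9.31, 3.96, 6.27 and 4.27 CPM. Rats 3 and 5 were high and rat 2 low. Extracellular matrix genes (23 of 24 kept, median CV 17.1%) had a median r of 0.09. Col3a1 lay between 2314 and 3270 CPM, whereas Thbs1 (thrombospondin 1) ranged from 10.4 CPM in rat 2 to 96.3 CPM in rat 4. Clock genes (16 of 19 kept, median CV 22.0%, median r 0.22) differed by less than 3-fold for the output gene Dbp (111 to 262 CPM) and by 3.16-fold for Arntl (4.68 to 14.8 CPM). Cytosolic ribosomal protein genes had the lowest median CV of the pathway lists, 4.56%.

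Hormone receptors were read because the rats lacked ovaries and received a gonadotropin-releasing hormone antagonist. No count fell on Fshr, Lhcgr, Gnrhr, Pgr, Esr2 or Cyp19a1 in any of the 6 libraries, which allows at most 0.124 to 0.181 CPM per library. Some genes that every cell uses were also nearly without counts (Rps6 74 and Rpl8 32 counts in all), so a count of 0 here may not mean that the transcript is absent. The estrogen receptor Esr1 was read at 11.2, 63.5, 30.8, 79.6, 41.3 and 57.6 CPM (CV 51.8%), lowest in rat 1 and highest in rat 4. The oxytocin receptor Oxtr showed the reverse ends, with 154 CPM in rat 1 and 60.5 CPM in rat 4. Tshr (199 to 252 CPM) and the growth hormone receptor Ghr (706 to 986 CPM) varied little. Of the brown fat genes, Ucp1 received 2 counts in all, and Otop1 ranged from 8.90 CPM in rat 4 to 46.9 CPM in rat 1. Pparg lay between 278 and 415 CPM.

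Clustering the 300 most variable genes by the correlation of log2 CPM gave 6 modules with at least 10 genes, which held 200 genes. The clusters were formed from these same values and were not tested. Only these 300 of the 11500 kept genes could enter a module, so lists with a high CV were favoured beforehand. The size of each module is given beside the list members it held, and these counts of members are descriptions only. Module 1 (62 genes) was high in rats 1 and 5 and low in rats 4 and 6. It held 10 of the 18 fatty acid synthesis members, the lipase-related Pnpla3 (277 to 2871 CPM), Pappa2, a protease of insulin-like growth factor binding proteins (52.9 CPM in rat 1, 2.11 CPM in rat 4), the ciliary gene Ttc25 (2.74 to 36.3 CPM) and Aox3 (9.67 to 68.4 CPM). Module 2 (41 genes) was high in rats 4 and 6 and low in rat 1, with Pck1, Angptl4, Hilpda, Esr1, Sfrp4, Rasgef1b (12.3 CPM in rat 6, 1.82 CPM in rat 2), Thbs2 (31.9 to 162 CPM) and 3 macrophage markers. Spp1 (osteopontin), a product of activated macrophages, was read there at 1.68, 2.11, 13.1, 22.3, 14.8 and 29.4 CPM.

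Module 3 (40 genes) was high in rat 4 and held 8 of 19 heat shock members beside Irf4, Mt2A, Pdk4 and the macrophage genes Mrc1 and Cd163. Module 4 (33 genes) was high in rat 4 and low in rats 1 and 6, and held 12 of 35 interferon members with Siglec1, Cxcl10, Adgrv1 (3.57 to 24.8 CPM), Slfn3 (55.0 to 281 CPM) and Lamb3 (3.25 to 12.5 CPM). Rat 4 was thus the high library of both, and their levels differed in the other 5 rats. Module 5 (14 genes) was high in rat 6 with Cyp1b1, Fabp3, the actin-binding Synpo2 (98.3 CPM; 24.5 to 35.8 CPM elsewhere), Siglec10 and Sbspon (19.1 CPM; 6.19 to 8.18 CPM), and held no member of any list. Module 6 (10 genes) was high in rats 1 and 2 with Sfrp2 (7.47 to 33.1 CPM), Agap2 (8.59 to 36.6 CPM), Inmt and Mgp (74.8 to 199.6 CPM). The number of modules was 13 without rat 1 and 11 without rat 4.

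**Figure D5:**
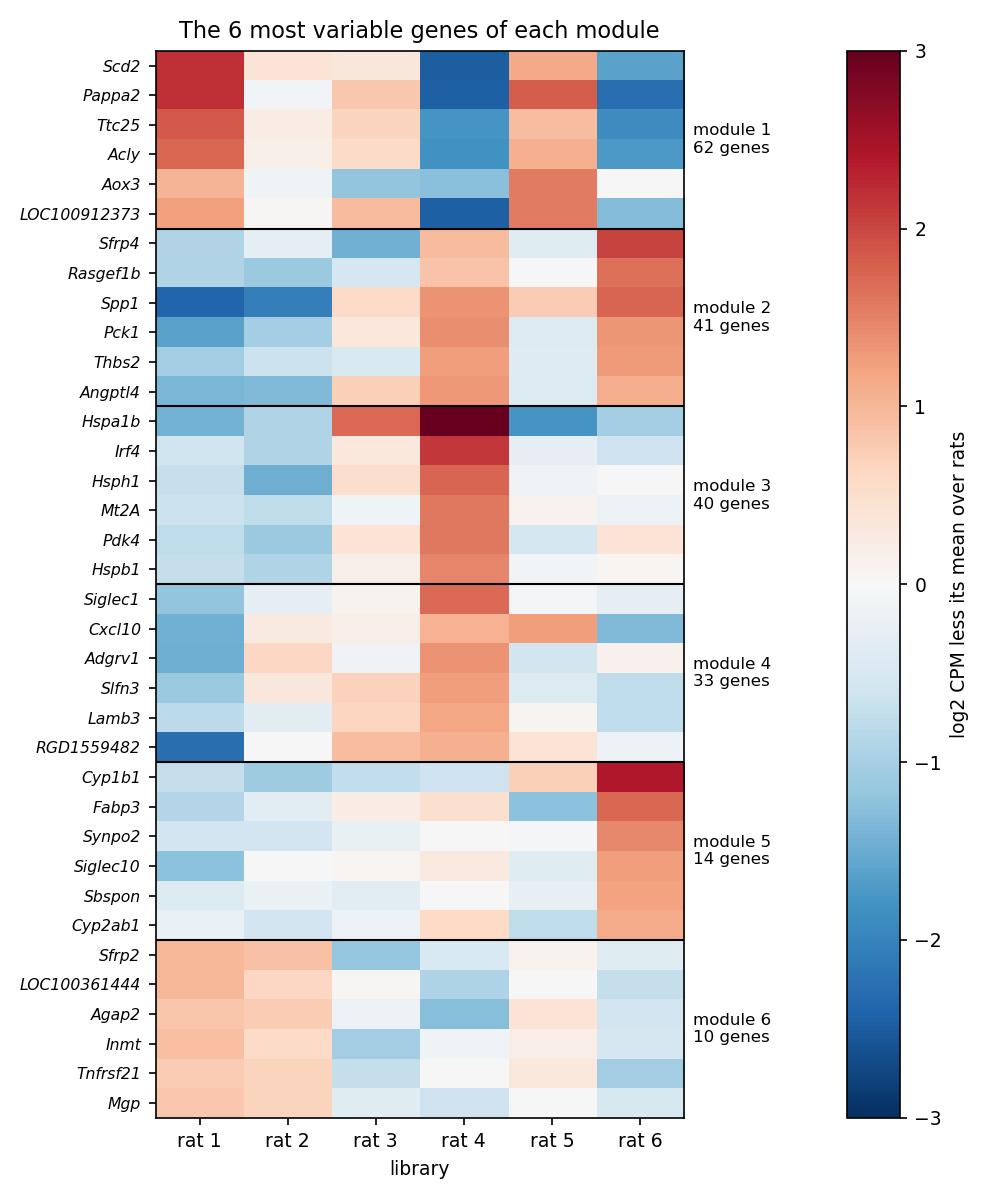
Log2 CPM less its mean over the 6 rats for the 6 genes of highest CV in each of 6 modules (rows) in each rat (columns). Module 1 is high in rats 1 and 5, modules 3 and 4 are high in rat 4, and module 5 is high in rat 6.

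The genes most alike to single anchors were listed by Pearson r of log2 CPM over 6 libraries, as a description. Among 9756 genes, 407 had r of at least 0.9 with Fasn, 219 with Insig1, 210 with Hspa1b, 199 with Irf7 and 53 with Fos. The share of all gene pairs at 0.9 was not counted, so whether these numbers are high or low for a gene is not known. The 8 nearest to Fasn were Oxa1l, Ndufa11, Acaca, Thrsp, Mterf4, Psma7, Scd1 and Pafah2 (r 0.993 to 0.998). Of these, Oxa1l, a mitochondrial membrane insertase, and the mitochondrial factor Mterf4 had a highest over lowest ratio of only 1.34 and 1.22, so they shared the order of rats and not the size. The nearest to Irf7 included the kinase Eif2ak2 and Hsf1 (r 0.989 and 0.995). The nearest to Hspa1b were Macf1 and Ampd3, with Dnajb4 of the heat shock list (r 0.989) and Hpgd, the enzyme that breaks down prostaglandins (r 0.980; 3.60-fold range). None of the 8 nearest to Insig1 or to Fos was a member of the same list, and among those nearest to Insig1 was the proteasome subunit Psmc3 (r 0.999, 1.27-fold range). With Pck1, an anchor added after its values were seen, the 8 nearest included Angptl4 (r 0.975) and the kinase Pim3 (r 0.988; 57.8 CPM in rat 1 and 224 CPM in rat 6). Over all 66119250 pairs of kept genes the median r was 0.00, and 3.88% of pairs reached 0.8.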

How the data were processed

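Messenger RNA of retroperitoneal fat was sequenced from paired ends with a kit that marks strand, per the labels' protocols, with 1 library per rat. The table the authors deposited holds raw counts per Ensembl gene. STAR, edgeR, DESeq2 and the rat build rn6 are named in the submitters' processing notes without roles or versions, while no source used here gives the counting program, the annotation release or the strand setting. Overlapping genes, and copies that share reads, are therefore uncertain.

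Of the 25275 rows, 1 was left out because a cell held no number, and 565 rows share a symbol with another. The 5 columns of the other group were not used. The 13 mitochondrially encoded genes were at 0 counts in all 6 libraries. Counts were scaled by TMM (edgeR 4.0.16, R 4.3.3) to CPM, with factors between 0.936 and 1.04. Other steps used Python 3.11.15, numpy 2.4.6, pandas 2.3.3, scipy 1.17.1 and matplotlib 3.10.9. The CV between rats is the root of the variance of CPM less the Poisson counting variance, divided by the mean. Log2 CPM used a prior count of 2. No 2 libraries agreed within sampling noise (lowest chi-square per degree of freedom 22.5).

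Of the pathway and marker list entries, 632 matched by symbol, 5 by a RefSeq synonym or Ensembl ID, and 19 did not match. The members and lists were chosen with earlier results of these data known. Named genes are the 20 most abundant, the 20 most variable whose mean reached 5 CPM, the 15 least variable whose mean reached 50 CPM, the 2 most abundant and 2 most variable members of each list, the 6 most variable genes of each module, the 8 nearest to each anchor, and the hormone receptors. Other members named were chosen after their values were seen. A few genes that the rule names are not reported here. Promoters were the 250 bases before the start in RefSeq (GRCr8).

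On simulated counts for 11500 genes in 6 libraries, a CV of at least 50% was found for 24 of 50 genes with a true CV of 60%, for 42 of 50 at 100%, for 1 of 50 at 30%, and for 0 of the 11280 genes left at 10%. Alternatives were DESeq2 1.42.0 size factors, no factors, upper-quartile factors, other filters, prior counts and CV measures, thinning, Spearman's rho and leaving out each library.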

Additional observations from a re-analysis of the deposited data

Results flagged for a closer look

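In 26 of 151 named genes, and in 3 of 47 list scores and marker sums, 1 of the 6 libraries lay far from the other 5 by the Dixon ratio, always on the high side. Chance flags about 1 in 20 groups. The genes were named partly for their spread, so this share is no estimate for other genes.

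Rat 4 stood apart for 14 of the 26 genes and for 2 marker sums. Its heat shock genes were Hspa1b (157 CPM), Hsph1 (573 CPM) and Hspb1 (1733 CPM). Macrophage and complement genes were Siglec1 (57.0 CPM), Mrc1 (54.9 CPM), Cd163 (25.6 CPM), C1qa (119 CPM), C1qb (89.3 CPM) and C1qc (135 CPM). Mt2A (19.2 CPM), Fkbp5 (121 CPM), Pdk4 (48.9 CPM), Irf4 (19.1 CPM) and the mast cell protease Cpa3 (24.4 CPM) were also apart there, as were the summed markers of mast cells (109 CPM) and lymphatic endothelial cells (61.4 CPM). The lymphatic markers Prox1 and Ccl21, too low to be kept, were not highest in rat 4.

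Rat 3 stood apart for the immediate early genes Fosb (44.95 CPM), Fos (60.8 CPM), Egr1 (118 CPM) and Cyr61 (152 CPM). Rat 6 stood apart for Cyp1b1 (141 CPM), Fabp3 (86.8 CPM), Synpo2 (98.3 CPM) and Sbspon (19.1 CPM). Rat 1 stood apart for the sterol enzymes Fdps (328 CPM) and Mvd (38.8 CPM). Rat 2 stood apart for Rpl30 (18.3 CPM), and rat 5 for Spred3 (2.23 CPM) and for the summed markers of lymph node stroma (14.4 CPM).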

How the results depend on the processing

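The number of genes kept, the share of counts in the 20 most abundant genes and the number of lists with a median r of at least 0.5 (12 of 26) stayed within the set limits under every alternative run. The limits were wide for the counts. Within them lay 16569 genes with every gene of at least 1 count, in place of 11500, and 9 to 13 lists when each library was left out. The median CV of 9.79% was 10.8% with every gene of at least 1 count, 11.6% with counting error left in and 11.5% from the SD of log2 CPM, and 8.94% to 10.0% when each library was left out in turn. The 194 genes with a CV of at least 50% became 1747 with every gene of at least 1 count and 91 with a 5 CPM filter, and 147 to 234 when each library was left out. Without rat 4, 128 of the 194 were called again (66.0%). The 2 list pairs past the threshold became 0 with upper-quartile factors and 4 after thinning, and 0 without any 1 library, where 120 orders can give no p under 0.00833. The 6 modules became 12 with 500 genes and 5 to 13 when each library was left out (13 without rat 1, 11 without rat 4), alternatives that were added after seeing the data. Median r went below 0.5 without rat 4 for heat shock (0.42) and unfolded protein response (0.45), and without rat 1 for cholesterol synthesis (0.45), immediate early genes (0.31) and cytokines (0.41). The cause was not tested. Of the CVs of named genes under all alternatives, 1857 values moved by less than the spread over libraries and 99 by more. That spread was computed from the CVs found when each library was left out, and those CVs are among the values counted. For them a move within the spread was nearly fixed in advance, so these counts do not measure stability. No paired analysis was possible because 1 group is described and no groups are compared. The order per coding kilobase was not run, since no protein lengths were used here. At 1 CPM counting error alone gives a CV of 22.6%, so small spreads of low genes were not detectable at this depth.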

Other observations

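Among genes below 1 CPM in some rat, 10 reached 10 CPM in another. Ifit1, an interferon-induced protein that binds foreign RNA, was read at 73.7, 69.4, 0.178, 96.9, 0.0603 and 31.6 CPM in rats 1 to 6, with 3 counts in rat 3 and 1 in rat 5. Its relative Ifit3 was read at 68.9 CPM in rat 3 and 63.1 CPM in rat 5, so it was not low there. The MHC class I gene RT1-N2 was at 16.8, 17.2 and 18.3 CPM in rats 2, 3 and 5, and at 0 to 1 count in rats 1, 4 and 6. RT1-T24-1 was at 11.4 and 9.10 CPM in rats 3 and 5 and at most 1.95 CPM in the others, and LOC100909797 was at 29.0 and 20.5 CPM in the same 2 rats and at most 1.16 CPM elsewhere. LOC100909510 was at 0.720 CPM in rat 6 and 8.66 to 10.6 CPM in the others. RT1 genes have near-identical copies, so these counts are uncertain.

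Albumin transcripts split the rats in another way. Alb, the main plasma protein of liver, was read at 371, 1262, 250.4, 1243, 1262 and 453 CPM, and Afp, its fetal relative, at 0.367, 7.95, 0.178, 7.15, 11.0 and 0.288 CPM. Both were high in rats 2, 4 and 5. Of the 4 kept members of the liver and pancreas list, the 3 besides Alb were lowest in rat 2, so they did not share this split. Alb and Afp neighbour each other in the RefSeq table of GRCr8. Slc2a5, the fructose transporter, was at 10.8 CPM in rat 1, 0.405 CPM in rat 4 and 0.720 CPM in rat 6, the rats at the ends of the fatty acid synthesis range. Thbs4, a matrix glycoprotein, was at 0.945 and 0.497 CPM in rats 1 and 2 and at 8.84 to 14.4 CPM in the other 4.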
